A study of Mus musculus with 39 samples.

Results

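The question addressed here was whether the muscle transcriptome of mice with a reduced insulin gene dose differed from that of littermates by a different amount on a high-energy diet than on a moderate-energy one. The comparison used all 20 muscle libraries of the 39 libraries in the series; the other 19 were livers. Every mouse was a female of 25 weeks on a mixed C57BL/6 and 129 background and was homozygous for the Ins1 deletion (Ins1-/-), so the controls lacked that insulin gene as well. Mice were Ins1-/-;Ins2+/+ or Ins1-/-;Ins2+/-, the latter having a single intact copy of the remaining insulin gene. Diet A (LabDiet 5LJ5) held 4.68 kcal per g, with 20% of calories as protein, 25% as fat and 55% as carbohydrate. Diet B (Research Diets D12330) held 5.56 kcal per g, with 16% as protein, 58% as fat and 26% as carbohydrate. The muscle was the triceps surae, the calf muscle group of the hindlimb, taken after a 4 h fast and frozen. There were 5 libraries in each of the 4 groups, named below by genotype, diet letter and replicate number. The Ins2 deletion is in every cell of the mouse, while the gene is normally active in the beta cells of the pancreas, so muscle is a tissue that receives insulin and does not make it.

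Insulin acts on muscle through its receptor and the insulin receptor substrate proteins, which lead to the movement of the glucose transporter GLUT4 (Slc2a4) to the cell surface, glycogen storage and the exclusion of FOXO transcription factors from the nucleus. FOXO targets in muscle include the ubiquitin ligases Fbxo32 and Trim63, which mark fibre proteins for breakdown, and Pdk4, which holds back glucose oxidation. Diets rich in fat shift muscle fuel use towards fatty acids and, in rodents, blunt the response to insulin.

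The interaction is a difference of differences: the log2 ratio of Ins2+/- to Ins2+/+ on diet B minus the same ratio on diet A. A positive value means that Ins2+/- muscle stood higher relative to Ins2+/+ on diet B than it did on diet A, whatever the level on either diet. Values of a gene per library are CPM, in which a count is given relative to the TMM-scaled total of its library. CPM summed over several marker genes are relative to the unscaled total, and so are not on the same scale. The TMM factor of Ins2+/- B 2 was 0.712, and those of the other libraries lay between 0.923 and 1.14. The estimates and tests are from edgeR's quasi-likelihood test over the 11959 genes that passed a filter on low counts, and adjusted p-values are Benjamini-Hochberg values over all of them.

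Libraries held between 1060469 and 13709576 estimated counts, with a median of 4080492, and the shallowest was Ins2+/- A 3. Ins1 had no count in 18 libraries, 3 counts in Ins2+/- A 2 and 11 in Ins2+/- B 5. Ins2 did not check the genotype here: it was 0.668 to 1283 CPM in Ins2+/+ A, 1.56 to 3605 in Ins2+/- A, 0.437 to 2189 in Ins2+/+ B and 1.05 to 12363 in Ins2+/- B. Xist was listed at 0 in all 20 libraries, so it did not check the labelled sex. The 4 islet hormone genes Iapp, Gcg, Sst and Ppy together reached 5 CPM in 9 libraries. Markers of muscle fibres (Ckm, Acta1, Myh4, Ttn and 6 others) summed to 106871 to 148765 CPM in 18 libraries, but to 58178 in Ins2+/- B 2 and 80462 in Ins2+/- B 4. In Ins2+/- B 2, genes of the mitochondrial genome took up 49.7% of all counts, where the range elsewhere was 13.7% to 26.8%, and Ins2+/- B 4 held 42670 CPM of pancreatic acinar transcripts. Both libraries belong to the group of low insulin gene dose on diet B, so results are given with all 20 libraries and again with these 2 left out. The biological coefficient of variation was 51.8% with them and 49.1% without them, against 19.1% in liver. In bulk muscle, fewer cells of a type and less RNA per cell cannot be told apart.

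No gene passed the test of the interaction (0 of 11959, 0%). At an unadjusted p below 0.05 there were 387 genes, 3.24% of those tested, and 5% of the genes tested would be 598. Of them 231 (1.93%) had a positive interaction and 156 (1.3%) a negative one, and 43 (0.36%) were at an unadjusted p below 0.01. The lowest adjusted p was 0.312, for Cp, and every other gene was at 1.00. With Ins2+/- B 2 and B 4 left out, again 0 of 12595 genes passed, and 317 (2.52%) were at an unadjusted p below 0.05, 166 (1.32%) higher and 151 (1.2%) lower. The lists from the 20 and the 18 libraries had 143 genes in common, which is 37.0% of the 387 and 45.1% of the 317, and 385 of the 387 kept their direction. The 18 libraries are all among the 20 that picked the 387. The shared genes and kept directions are therefore not an independent check. DESeq2 called 1 gene, Cp, and so did edgeR on all 39 libraries, a fit in which liver and muscle share 1 estimate of the spread.

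The precision of a difference of 4 group means sets what these data could show. The median standard error of the interaction was 0.574 on the log2 scale, and the median half-width of its 95% interval was 1.19, a 2.27-fold difference. For 4901 genes (41.0%) the half-width was under 1, the size of a doubling or halving of the genotype ratio between diets. For the other genes an interaction of that size could not be told from none at this spread. These intervals are for single genes and are not adjusted for the number of genes tested. Cp, with an interval of 1.12 to 2.60, was not called, at an adjusted p of 0.312. A half-width under 1 thus does not mean that a doubling or halving would have been called, or that it is excluded.

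The genotype differences that the interaction subtracts were themselves not called. On diet A 0 genes passed the test, with 200 (1.67%) at an unadjusted p below 0.05, of which 102 (0.853%) were higher in Ins2+/- and 98 (0.819%) lower. On diet B 0 passed, with 543 (4.54%) at that level, 342 (2.86%) higher and 201 (1.68%) lower. DESeq2 called Mpp2 and Gm10925 on diet A and Gm7887 on diet B, and limma-voom called none. Across all 11959 genes the genotype ratios on the 2 diets had a Pearson correlation of 0.107 and a Spearman correlation of 0.0063, given as a description since genes are not independent. Of the 387 genes, 378 (97.7%) had genotype differences of opposite sign on the 2 diets, against 50.1% of all genes. A genotype difference at an unadjusted p below 0.05 was present on diet B for 162 of them, on diet A for 57, on both for 5 and on neither for 173. This split is set in part by how the 387 were picked, and is a description of them.

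**Figure D1:**
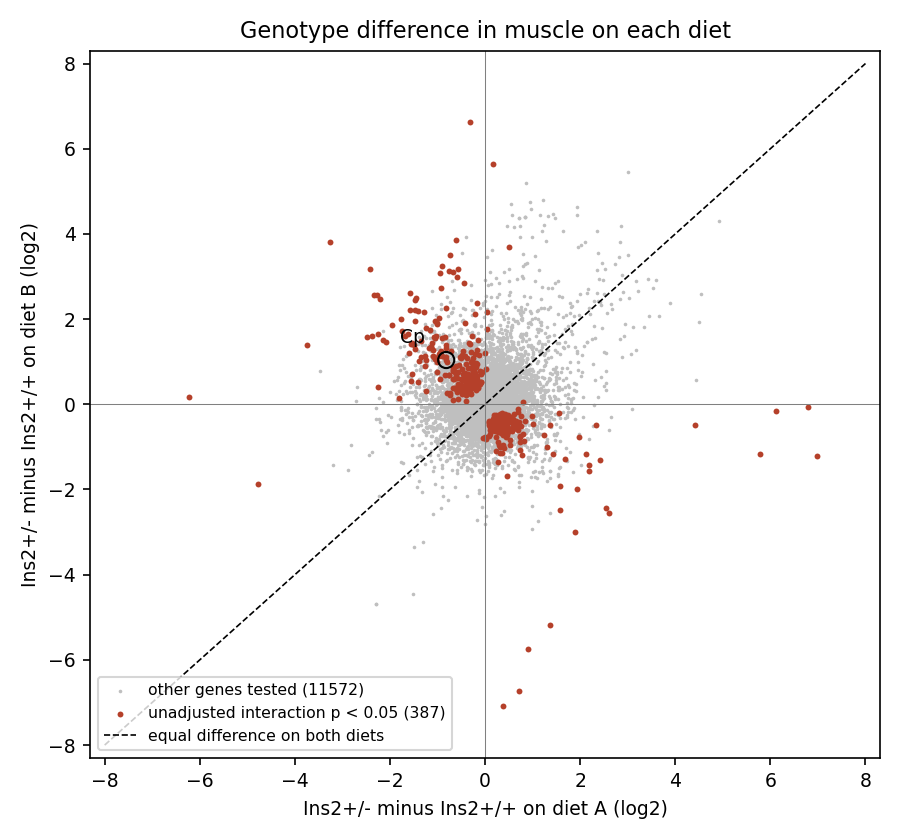
Each point is a gene, with the log2 ratio of Ins2+/- to Ins2+/+ on diet A on the horizontal axis and on diet B on the vertical axis. The dashed line marks equal ratios, so vertical distance from it is the interaction. The 387 genes at an unadjusted p below 0.05 (red) lie off the line and nearly all in the quadrants of opposite sign, Cp is circled, and the other 11572 genes are grey.

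Seen by diet, 0 genes passed in Ins2+/+ muscle and 1 gene in Ins2+/- muscle (0.00836%). At an unadjusted p below 0.05, Ins2+/+ muscle had 299 genes (2.5%), 117 (0.978%) higher on diet B and 182 (1.52%) lower. There DESeq2 called Mpp2 and limma-voom called Scd1. Ins2+/- muscle had 577 (4.82%), 296 (2.48%) higher and 281 (2.35%) lower. The gene called in Ins2+/- muscle was Scd1, stearoyl-CoA desaturase, which makes monounsaturated fatty acids from saturated ones, and it is named after its value was seen. Scd1 stood at 592, 225, 326, 116 and 211 CPM in Ins2+/+ A and at 249, 134, 70.8, 203 and 135 in Ins2+/- A. On diet B it stood at 1482, 1053, 776, 519 and 1169.9 CPM in Ins2+/+ and at 1311, 1724, 667, 637 and 903 in Ins2+/-. No Ins2+/- library on diet B was as low as any on diet A, and in Ins2+/+ muscle 1 diet A library (592) lay above 1 diet B library (519). Scd1 rose with diet B in Ins2+/- muscle by 2.72 on the log2 scale (SE 0.40, edgeR adjusted p 0.00572), and the difference in Ins2+/+ was 1.77 (SE 0.38, adjusted p 0.709). The interaction itself was 0.96 (SE 0.53, unadjusted p 0.0837), so the diet response was not shown to differ between genotypes. Without Ins2+/- A 5, and in the fits with robust estimation, without islet-positive libraries or over all 39 libraries, Scd1 was no longer called.

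Cp encodes ceruloplasmin, the copper-binding ferroxidase that oxidizes iron as it leaves cells, and liver secretes most of the plasma protein. The gene (ENSMUSG00000003617) lies on the plus strand of chromosome 3 at 19957054 to 20009145 in GRCm38. On diet A, Cp stood at 31.3, 36.9, 40.8, 38.9 and 28.3 CPM in Ins2+/+ and at 23.6, 20.9, 20.7, 17.0 and 17.5 in Ins2+/-. On diet B it stood at 27.8, 23.1, 18.5, 14.3 and 20.6 CPM in Ins2+/+ and at 31.4, 74.8, 30.5, 49.7 and 31.6 in Ins2+/-. The genotypes did not overlap on either diet: Ins2+/- was the lower group on diet A and the higher one on diet B. The group means were 35.2 ± 5.25 and 19.9 ± 2.72 on diet A and 20.9 ± 5.04 and 43.6 ± 19.2 on diet B (SD, n = 5, Ins2+/+ first). The interaction was 1.86 (SE 0.36, 95% interval 1.12 to 2.60, unadjusted p 2.61e-05), made of a genotype difference of -0.82 on diet A and 1.04 on diet B. With Ins2+/- B 2 and B 4 left out it was 1.40 (edgeR unadjusted p 0.00014, adjusted p 0.99985). Over the 20 fits that each left out 1 library it lay between 1.57 and 1.99, with adjusted p between 0.21 and 0.953. Over the 18 other alternative settings it lay between 1.16 and 2.22. DESeq2 gave 1.88 at an adjusted p of 0.0348 and edgeR over all 39 libraries gave 1.88 at 0.0102, so whether Cp counts as called depended on the fit. In the fit of 39 libraries the tissues share 1 estimate of the spread. The biological coefficient of variation was 19.1% in liver and 51.8% in muscle, so the p-value from that fit does not rest on the spread of muscle alone. Groups that do not overlap were few among all genes: on diet B 41 genes (0.343%) had all Ins2+/- libraries above and 38 (0.318%) below, and on diet A 21 (0.176%) and 41 (0.343%).

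Of the other genes with the lowest p for a positive interaction, Arid4b, Smc6 and Srp19 came next, none of them near the adjusted threshold. Arid4b (chromosome 13, 14063232 to 14199603, plus strand) encodes a subunit of the SIN3A histone deacetylase complex. It stood at 25.1, 19.7, 22.6, 23.97 and 27.4 CPM in Ins2+/+ A, at 19.1, 20.6, 8.85, 14.8 and 12.3 in Ins2+/- A, at 17.5, 15.1, 17.6, 17.2 and 11.97 in Ins2+/+ B and at 16.6, 40.9, 19.4, 29.8 and 22.7 in Ins2+/- B. The genotypes overlapped by 1 library on each diet, and the highest value was that of Ins2+/- B 2. Its interaction was 1.30 (SE 0.38, unadjusted p 0.0025) and 0.92 without Ins2+/- B 2 and B 4.

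Smc6 (chromosome 12, 11265886 to 11319785, plus strand) is part of the SMC5/6 complex, which acts in DNA repair and chromosome structure. It stood at 33.6, 30.1, 48.9, 59.3 and 39.9 CPM in Ins2+/+ A, at 47.8, 33.5, 37.4, 29.3 and 23.8 in Ins2+/- A, at 36.7, 17.2, 26.0, 16.3 and 26.4 in Ins2+/+ B and at 36.6, 86.1, 45.2, 38.9 and 39.3 in Ins2+/- B. The genotypes overlapped on both diets, on diet B by 1 library. The interaction was 1.28 (SE 0.39, unadjusted p 0.00311), and 1.01 without Ins2+/- B 2 and B 4. Ins2+/- B 2, at 86.1 CPM, was far above the other 4 of its group, which lay between 36.6 and 45.2.

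Srp19 (chromosome 18, 34330847 to 34336599, plus strand) encodes a protein of the signal recognition particle, which brings ribosomes to the endoplasmic reticulum. It stood at 17.7, 27.8, 33.8, 27.8 and 29.6 CPM in Ins2+/+ A, at 22.2, 23.8, 21.6, 14.8 and 18.6 in Ins2+/- A, at 21.7, 16.4, 14.8, 11.1 and 18.3 in Ins2+/+ B and at 16.7, 85.6, 32.3, 19.9 and 27.0 in Ins2+/- B. The groups overlapped on both diets, and Ins2+/- B 2 was again the highest. The interaction was 1.56 (SE 0.48, unadjusted p 0.00373) and 1.06 without Ins2+/- B 2 and B 4.

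The remaining positive genes among the 12 of lowest p were varied in kind. Mettl21c, a lysine methyltransferase made mainly in muscle, had an interaction of 1.11 (SE 0.36) with all libraries and of 1.10 without Ins2+/- B 2 and B 4. Its Ins2+/+ B libraries lay at 18.3 to 41.1 CPM and the other groups at 28.2 to 70.5, and the lowest group mean was that of Ins2+/+ B, at 27.8. Matr3, a nuclear matrix protein that binds RNA, had a small interaction of 0.67 (SE 0.22), with Ins2+/- B at 78.4 to 116 CPM and Ins2+/+ B at 56.6 to 72.3 without overlap. Usp1, a deubiquitinase of the DNA repair pathway, stood at 1.44 (SE 0.47) and Prps1l3, of the phosphoribosyl pyrophosphate synthetase family, at 1.48 (SE 0.49). Lars2, the mitochondrial leucyl-tRNA synthetase, had the widest range: 71641 CPM in Ins2+/- B 4, 38736 in Ins2+/+ A 4, 12362 in Ins2+/+ A 2 and 10876 in Ins2+/+ B 4, against 929.6 to 4533 in the other 16. Its interaction of 3.83 (SE 1.27) was 1.40 with Ins2+/- B 2 and B 4 left out. Mat1a, the methionine adenosyltransferase of liver, is taken up with the hepatocyte genes below. In Proca1 all 5 Ins2+/+ B libraries had no count, so no ratio is given for it.

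Among genes with a negative interaction, Mpp2, Kif24, Ccl6 and Iqsec2 had the lowest p. Mpp2 (chromosome 11, 102057015 to 102088515, minus strand), a membrane scaffold protein of the MAGUK family, had no count in any Ins2+/+ A library. It stood at 1.42, 5.98, 0, 3.91 and 2.19 CPM in Ins2+/- A, at 3.35, 12.2, 1.87, 1.30 and 6.33 in Ins2+/+ B and at 1.86, 6.11, 2.49, 0 and 0.234 in Ins2+/- B, with an unadjusted p of 0.000329. These are low levels, and a fold against a group without a count is not given. Kif24 (chromosome 4, 41390745 to 41464887, minus strand), a kinesin that acts on primary cilia, stood at 2.07, 0.779, 0, 0.585 and 0.891 CPM in Ins2+/+ A and at 0.991, 1.21, 5.90, 4.47 and 4.92 in Ins2+/- A. On diet B Kif24 stood at 1.46, 10.5, 1.64, 2.60 and 5.65 CPM in Ins2+/+ and at 0.542, 0, 0.982, 0 and 0.585 in Ins2+/-, without overlap. Its interaction was -4.91 (SE 1.36, unadjusted p 0.00143), at a level where single reads weigh heavily.

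Ccl6 (chromosome 11, 83587882 to 83593087, minus strand) encodes a mouse CC chemokine made by myeloid cells. It stood at 16.0, 9.61, 11.7, 10.2 and 13.1 CPM in Ins2+/+ A, at 15.1, 28.05, 63.9, 19.0 and 21.9 in Ins2+/- A, at 10.6, 33.6, 12.9, 21.2 and 17.6 in Ins2+/+ B and at 12.9, 21.2, 8.39, 9.10 and 6.90 in Ins2+/- B. On diet A 4 of 5 Ins2+/- libraries lay above all Ins2+/+ libraries, and on diet B 3 of 5 lay below all of them. The interaction was -1.95 (SE 0.56, unadjusted p 0.00184) and -2.20 without Ins2+/- B 2 and B 4.

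Iqsec2 (chromosome X, 152144268 to 152225236, plus strand) encodes a guanine nucleotide exchange factor for ARF proteins, best known from synapses. It stood at 9.65, 14.5, 9.78, 14.3 and 12.03 CPM in Ins2+/+ A and at 17.0, 19.3, 29.5, 15.6 and 26.5 in Ins2+/- A, which did not overlap. On diet B Iqsec2 stood at 12.5, 21.8, 20.6, 18.9 and 26.4 CPM in Ins2+/+ and at 10.1, 2.35, 9.90, 19.0 and 14.1 in Ins2+/-. Ins2+/- was thus the higher group on diet A, and on diet B the groups overlapped with Ins2+/- the lower on average. The interaction was -1.69 (SE 0.51, unadjusted p 0.00267) and -1.62 without the 2 libraries.

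**Figure D2:**
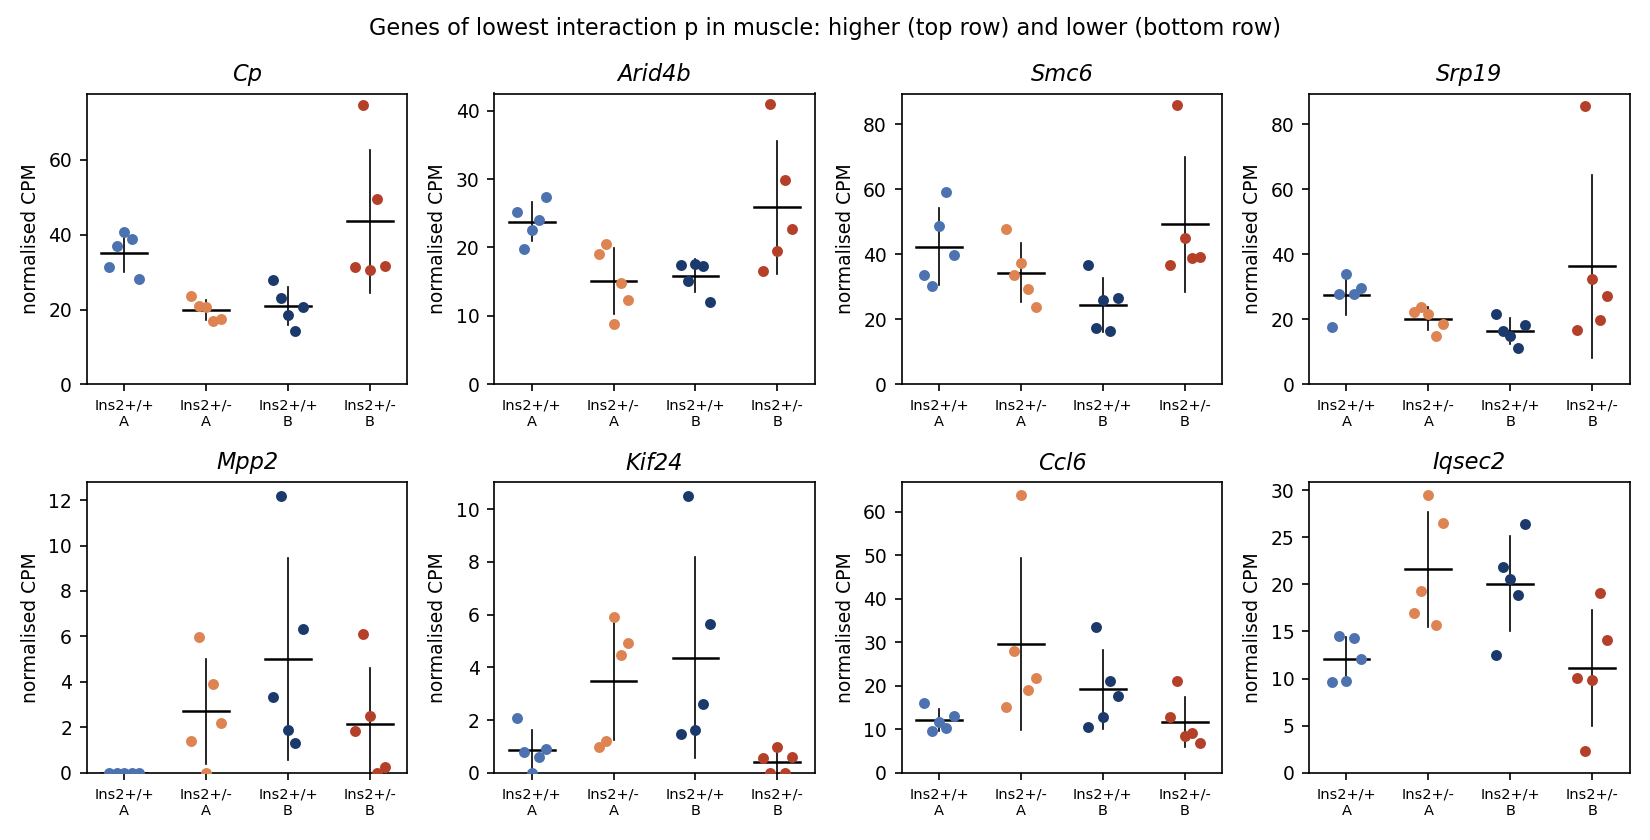
TMM-scaled CPM in each of the 20 libraries for the 4 genes of lowest p with a positive interaction (top row) and the 4 with a negative one (bottom row). Points are libraries in replicate order, black lines group means, and bars 1 SD on either side, stopped at 0. In Cp the order of the genotypes turns between diets with no overlap, and in Smc6 and Srp19 the Ins2+/- B mean is raised by replicate 2.

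The other negative genes of lowest p had interactions from -0.73 to -4.98 where a ratio could be given. Eri3, a gene of the exoribonuclease family, stood at -1.01 (SE 0.33), Padi2, a peptidylarginine deiminase, at -1.001 (SE 0.34; -0.65 without Ins2+/- B 2 and B 4), and Wbp2, a transcriptional coactivator, at -0.73 (SE 0.25). Pcid2, part of the mRNA export machinery, stood at -1.13 (SE 0.40). Its Ins2+/- A libraries, at 12.2, 15.6, 10.8, 10.9 and 11.5 CPM, all lay above the Ins2+/+ A ones, at 9.30, 7.79, 8.38, 8.18 and 7.79. Anapc11, a subunit of the anaphase-promoting complex, stood at -1.50 (SE 0.52), and Mrgprg and Wdpcp, both low, at -4.98 (SE 1.67) and -3.92 (SE 1.38). Trim17 had no count in any Ins2+/+ A library. In the fit of 18 libraries the positive genes of lowest p were Cp, Dusp16 (1.09, SE 0.31), Ssh2, Mettl21c and Inppl1, and the negative ones Mpp2, Ccl6, Iqsec2, Rnf139 (-0.83, SE 0.26) and Rgs17. Cp, Mettl21c, Mpp2, Ccl6 and Iqsec2 were thus among the leading genes of both fits.

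The 12 genes of insulin action and fuel choice gave no call, all with an adjusted p of 1.00, and their intervals bound the difference of genotype effects between diets. For the insulin receptor Insr the interaction was 0.04, with a 95% interval of -0.70 to 0.78. Its libraries lay at 61.9 to 101 CPM in Ins2+/+ A, 20.7 to 102 in Ins2+/- A, 68.4 to 84.3 in Ins2+/+ B and 68.7 to 83.7 in Ins2+/- B, with the low value in Ins2+/- A 3. Irs1, the main receptor substrate of muscle, stood at -0.37 (-1.44 to 0.69). Irs2, the substrate whose gene FOXO factors induce, stood at 1.01 (-0.61 to 2.62), the widest interval of the 12. Irs2 was 9.13, 8.83, 25.4, 43.6 and 79.1 CPM in Ins2+/+ A, 6.37, 20.7, 23.6, 31.3 and 18.6 in Ins2+/- A, 15.1, 5.04, 11.2, 22.8 and 11.1 in Ins2+/+ B and 15.1, 2.35, 24.9, 19.0 and 16.6 in Ins2+/- B. The groups overlapped on both diets, and without Ins2+/+ A 5 alone, the library at 79.1, the interaction of Irs2 was 0.38. Single libraries weighed as much in Irs1, at -0.12 without Ins2+/- A 4, and in Foxo1, at -0.11 without Ins2+/- B 5.

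Slc2a4 stood at 414, 327, 321, 405 and 375 CPM in Ins2+/+ A and at 381, 374, 278, 408 and 384 in Ins2+/- A. On diet B Slc2a4 stood at 393, 385, 331, 318 and 406 CPM in Ins2+/+ and at 419.9, 111, 420.4, 221 and 449 in Ins2+/-, where the low values were those of replicates 2 and 4. Its interaction was -0.16 (-0.88 to 0.56) and turned to 0.26 without those libraries. Hk2, the hexokinase that insulin induces in muscle, likewise went from -0.42 (-1.01 to 0.17) to -0.11. Its lowest values, 149 and 92.7 CPM, were again those of Ins2+/- B 2 and B 4, and the other 18 libraries lay between 170.3 and 291.

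The FOXO targets Fbxo32 and Trim63 stood at 0.06 (-0.63 to 0.74) and -0.34 (-1.17 to 0.50), and Foxo1 itself at -0.34 (-1.33 to 0.64). Pdk4, the pyruvate dehydrogenase kinase of fasting, stood at 0.09 (-0.50 to 0.68), with libraries between 689 and 1901 CPM in all groups together. Ppargc1a, the coactivator of mitochondrial biogenesis, stood at 0.39 (-0.42 to 1.21) and the mitochondrial carrier Ucp3 at -0.14 (-0.80 to 0.52). The narrowest interval of the 12 was that of Txnip, an inhibitor of thioredoxin and of glucose uptake, at 0.24 (-0.23 to 0.72). Txnip stood at 784, 870.0, 798, 668 and 1180.4 CPM in Ins2+/+ A, at 758, 577, 508, 527 and 597 in Ins2+/- A, at 652, 821, 758, 825 and 895 in Ins2+/+ B and at 677, 530.4, 770.1, 568 and 686 in Ins2+/- B. The Ins2+/- mean of Txnip was the lower on both diets, by 0.53 on the log2 scale on diet A (unadjusted p 0.0033) and by 0.29 on diet B, and neither passed the test.

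**Figure D3:**
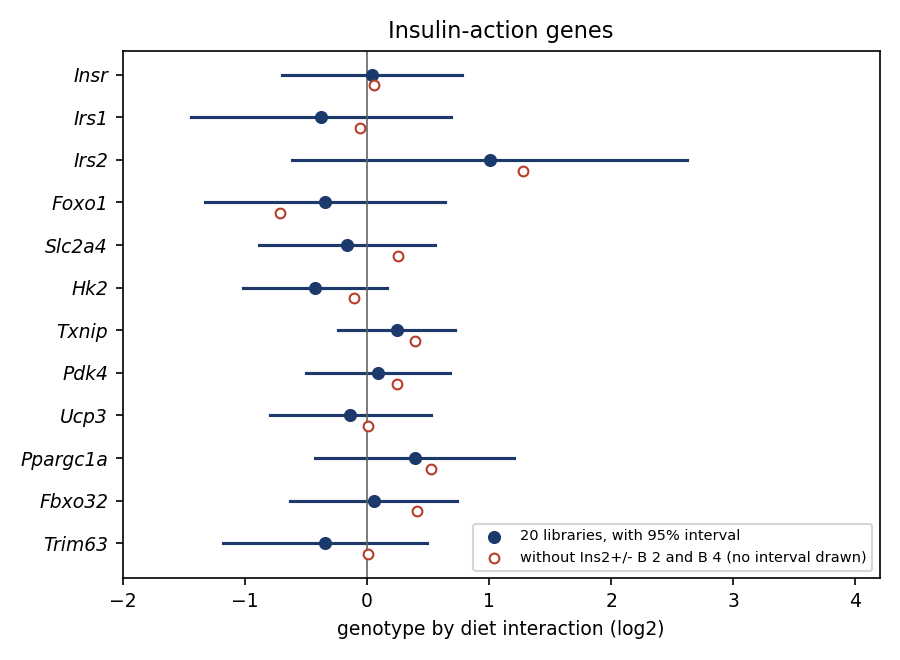
Interaction on the log2 scale for 12 genes of insulin action and fuel choice, with all 20 libraries (filled circle with its 95% interval) and without Ins2+/- B 2 and B 4 (open circle). Every interval holds 0, and they span from 0.95 for Txnip to 3.24 for Irs2 in full width.

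The lists of pathway genes were described by their counts and medians beside those of all genes, whose median interaction was 0.03. Of 36 insulin signalling genes (receptor, substrates, PI3-kinase, AKT, FOXO and mTOR arms) 24 were higher and 12 lower, 0 reached an unadjusted p below 0.05, and the median was 0.08. The cytosolic ribosomal proteins (49 tested, 26 higher, median 0.04), proteasome subunits (30 tested, 18 higher, median 0.08) and the 15 tested neighbours of Ins2 on distal chromosome 7 (7 higher, median -0.02) also lay near the median of all genes. Nuclear-encoded respiratory chain subunits had a median of -0.10 (45 tested, 17 higher) and genes of fatty acid uptake and oxidation one of -0.07 (34 tested, 13 higher). The lists that are not described one by one, drawn in the plot of list medians, had medians from -0.26 (fibroblast markers) to 0.49 (Schwann cell markers). Taken between group means of the list level in each library, the difference for fibroblast markers was -0.55, against a pooled SD of 0.19. For satellite cell and regeneration genes it was -0.99, against 0.40, where the fitted median was -0.20. Without Ins2+/- B 2 and B 4 the fitted medians of these lists were -0.13 and 0.05. The difference in level is not given for the rest of the lists not described one by one.

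Glycolysis and the fast fibre programme had negative medians that rested on a pair of libraries. Of 30 genes of glucose uptake, glycolysis and glycogen 26 were lower, with a median of -0.32, but -0.10 without Ins2+/- B 2 and B 4. Pgk1, phosphoglycerate kinase, was the 1 member at an unadjusted p below 0.05 (-0.51, SE 0.24, p 0.0449), and stood at -0.23 without Ins2+/- B 2 and B 4. Its Ins2+/- B libraries stood at 638, 419.9, 612, 339 and 718 CPM. Aldoa, the aldolase of muscle and one of its most abundant transcripts, stood at 10678, 7412, 11895, 7172 and 11696 CPM in Ins2+/- B and at 10701 to 14256 in the other groups (interaction -0.40, SE 0.21; -0.15 without Ins2+/- B 2 and B 4). In both genes replicates 2 and 4 were the low ones. Fast fibre genes (16 tested, 13 lower) went from -0.20 to -0.01 without them, citrate cycle genes (17 tested, 14 lower) from -0.21 to -0.03, muscle fibre markers (10 tested, 9 lower) from -0.28 to -0.04 and neuromuscular junction genes (17 tested, 12 lower) from -0.44 to -0.07. The summed level of muscle fibre markers, low in these 2 libraries as given above, is built from 1 of these lists. Its part in the other lists was not tested.

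The slow fibre genes had a positive median in both fits. Of 16 (Myh7, Myl2, Tnnt1, Atp2a2 and others of the slow contractile and calcium-handling set) 15 were higher and only myoglobin (Mb) lower, with a median of 0.62 and no member at an unadjusted p below 0.05. Without Ins2+/- B 2 and B 4 the median was 0.92, all 16 were higher and 6 reached an unadjusted p below 0.05, as 2.52% of all genes did in that fit. The 6 were Myh7 (1.11), Sln (1.11), Myl2 (1.02), Tnnt1 (0.97), Atp2a2 (0.94) and Myl3 (0.90), all with an adjusted p of 1.00. Myh7, the slow myosin heavy chain, stood at 851, 1018, 490.3, 1565 and 739 CPM in Ins2+/+ A, at 345, 1119.5, 679, 669 and 885 in Ins2+/- A, at 797, 1384, 453, 937 and 972 in Ins2+/+ B and at 1256, 499.9, 2083, 470.1 and 1268 in Ins2+/- B. Each group spanned more than the difference between group means, and Ins2+/- B 3 was the highest of all. Leaving out 1 library at a time moved the list's median between 0.29 and 0.84, with the low end set by Ins2+/- B 3. The level of the list per library gave a smaller value. The same difference taken between group means of that level was 0.35, against a pooled SD of 0.65. Genes of one fibre type can vary together between samples, so the members are not independent observations.

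**Figure D4:**
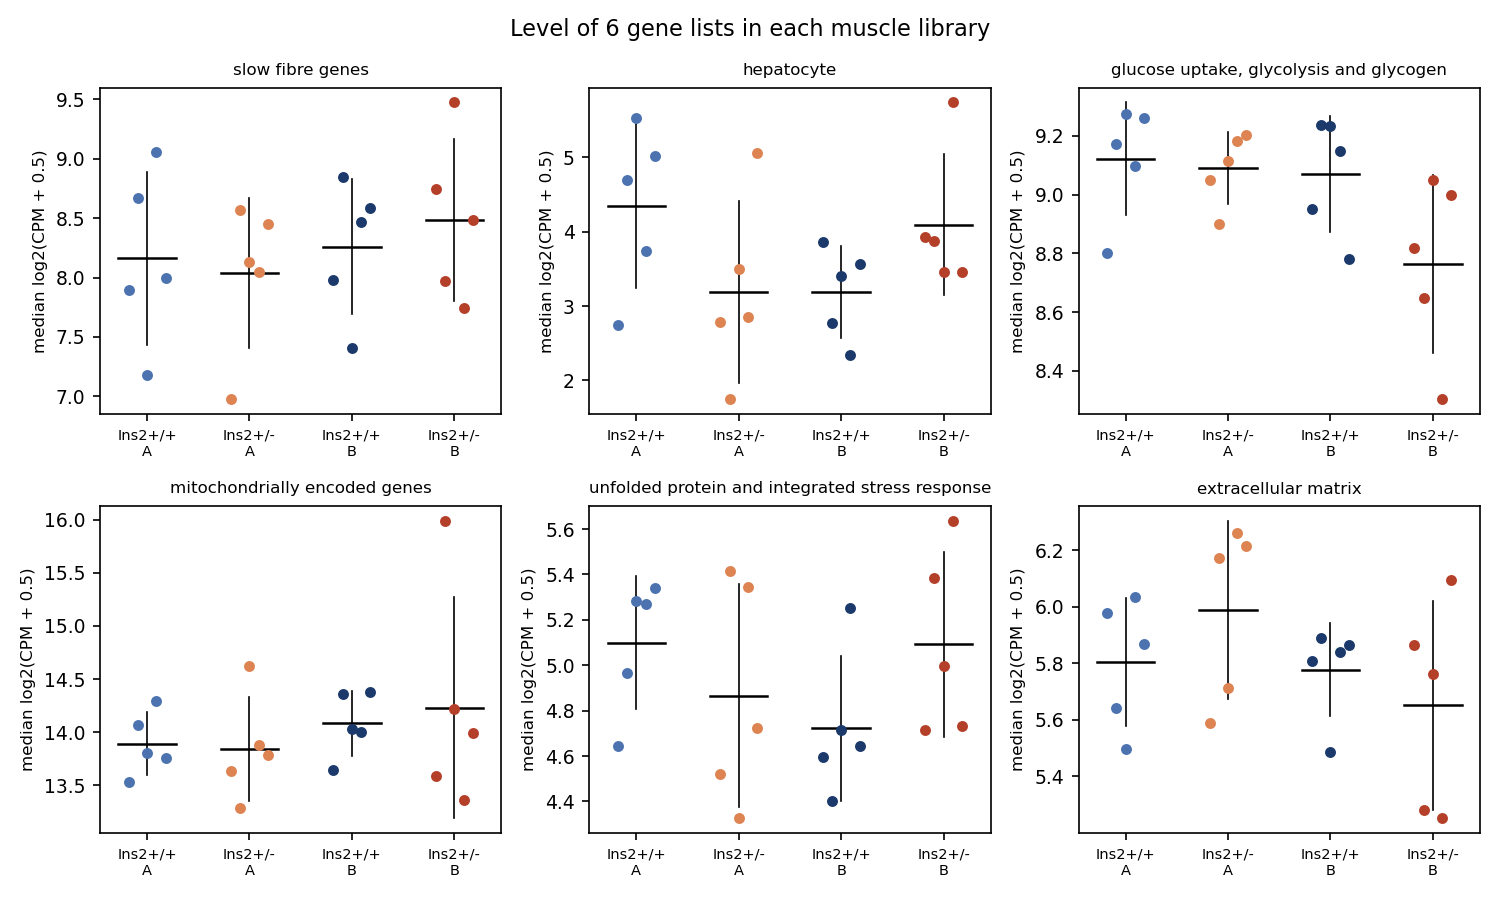
Median log2(CPM + 0.5) of 6 gene lists in each of the 20 muscle libraries, with group means and SD. The hepatocyte level of Ins2+/- B 4 was 5.74, where the other 4 libraries of its group lay between 3.46 and 3.93, and in the mitochondrially encoded list Ins2+/- B 2 stands highest.

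Genes of the mitochondrial genome and of stress responses had positive medians that also rested on these libraries. All 13 mitochondrially encoded genes had a positive interaction, with a median of 0.51, but it was -0.24 without Ins2+/- B 2 alone and -0.10 without B 2 and B 4. mt-Nd3, the 1 member at an unadjusted p below 0.05, stood at 1837, 13952, 2508, 1866 and 2366 CPM in Ins2+/- B, and its interaction of 1.48 (SE 0.64) was 0.49 without B 2 and B 4. Of 28 genes of the unfolded protein and integrated stress response 23 were higher, with a median of 0.41, against -0.06 without the 2 libraries. Hspa5, the chaperone of the endoplasmic reticulum, stood at 206, 280.3, 189, 699 and 171 CPM in Ins2+/- B, with an interaction of 0.79 (SE 0.41) that became 0.10. Nupr1, a stress-induced chromatin protein, stood at 6.97, 129, 7.25, 277 and 6.90 CPM there, and its interaction went from 3.19 (SE 1.26, unadjusted p 0.0182) to -0.31. The interferon response list (24 tested, 14 higher) went from 0.54 to -0.09. Its median did not depend on Ins2+/- B 2 and B 4 alone. With 1 library left out at a time it was lowest, at 0.10, without Ins2+/+ A 2. The leading member of the list, Ifit1, stood at 52.1 CPM in Ins2+/- B 4 and at no more than 5.10 in any other library.

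Early response genes, such as Fos, Egr1 and Jun, are induced within minutes of a stimulus. The median of their fitted interactions was 0.40 over 25 tested members, 19 of them higher, and 0.52 without Ins2+/- B 2 and B 4, with 0 members at an unadjusted p below 0.05. The level of the list per library, its median log2(CPM + 0.5), did not show this: the same difference taken between group means of that level was 0.01, against a pooled SD of 0.86. The level was 3.53 to 3.70 in the 4 libraries numbered 1, 3.24 in Ins2+/- B 2 and 4.17 to 6.03 in the other 15. Extracellular matrix genes had a negative median in both fits, -0.31 over 26 members with 21 lower, and -0.25 without the 2 libraries. Col6a3, a chain of collagen VI, had an interaction of -0.85 (SE 0.37, unadjusted p 0.0314). It stood at 41.5, 26.0, 19.6, 33.0 and 29.8 CPM in Ins2+/+ A, at 30.3, 43.4, 18.7, 54.8 and 53.0 in Ins2+/- A, at 47.2, 35.7, 26.0, 53.7 and 35.0 in Ins2+/+ B and at 35.3, 24.5, 30.1, 24.8 and 31.9 in Ins2+/- B, with overlap on both diets. Timp2, an inhibitor of matrix metalloproteinases, had an interaction of -0.58 (SE 0.24, unadjusted p 0.0251), and of -0.35 (unadjusted p 0.108) without Ins2+/- B 2 and B 4. On diet A it stood at 165, 131, 117, 135 and 128 CPM in Ins2+/+ and at 155, 116, 119, 179 and 155 in Ins2+/-. On diet B Timp2 stood at 159, 163, 157, 155 and 158 CPM in Ins2+/+ and at 142, 88.4, 117, 81.1 and 138 in Ins2+/-, where all 5 were lower. Macrophage markers, which share the myeloid origin of Ccl6, had a median of -0.41 over 14 members with 11 lower, and of -0.34 without the 2 libraries. That median was -0.73 without Ins2+/- B 1 alone and -0.81 without the 4 libraries numbered 1. C1qb, a complement component of resident macrophages, stood at 17.5, 9.87, 10.5, 0 and 12.4 CPM in Ins2+/- B.

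**Figure D5:**
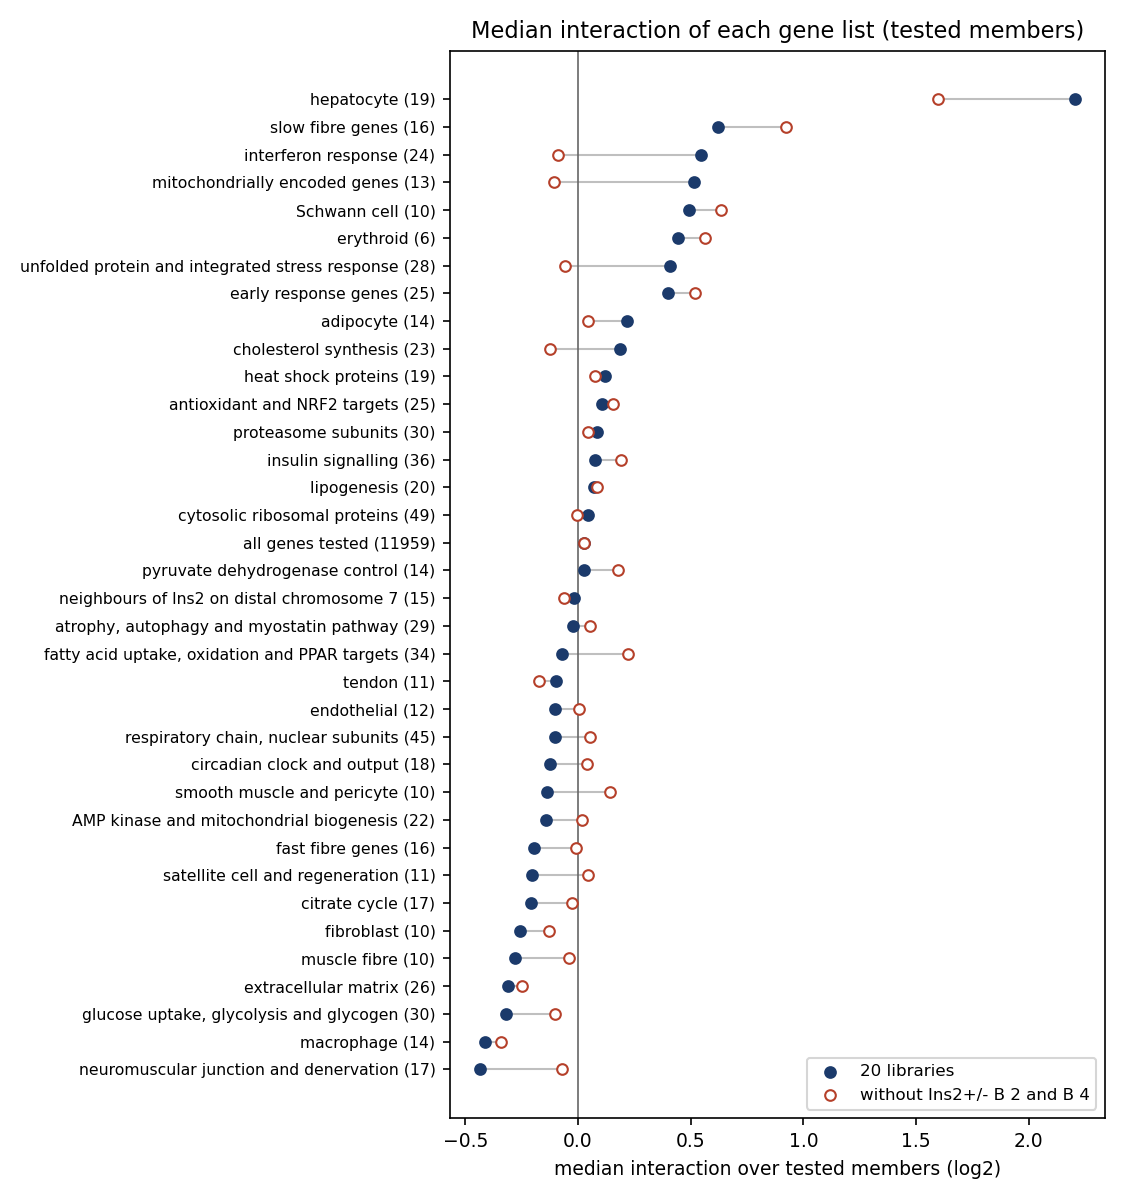
Median interaction on the log2 scale of 35 gene lists and of all genes tested, with all 20 libraries (filled) and without Ins2+/- B 2 and B 4 (open). Pancreatic islet and acinar markers are not drawn. Of the lists drawn, hepatocyte markers lie farthest from 0, at 2.21 and 1.60, slow fibre genes stay above 0 in both, and the stress, interferon and mitochondrially encoded lists move to near 0 when the 2 libraries are left out.

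The hepatocyte markers, which muscle fibres do not make, had the highest share of members at an unadjusted p below 0.05. All 19 tested members (of 22 listed) had a positive interaction, 14 of them (73.7%) at an unadjusted p below 0.05 against 3.24% of all genes, with a median of 2.21. Albumin (Alb) stood at 159, 712, 1269.9, 306 and 839 CPM in Ins2+/+ A, at 147, 66.2, 325, 195 and 971 in Ins2+/- A, at 376, 183, 231, 138 and 321 in Ins2+/+ B and at 379, 317, 205, 1411 and 583 in Ins2+/- B. No group was free of it, and the groups overlapped on both diets. Its interaction was 2.16 (SE 0.84). Cps1, the carbamoyl phosphate synthetase of the urea cycle, stood at 5.68, 24.7, 48.3, 9.35 and 22.7 CPM in Ins2+/+ A, at 4.39, 3.06, 16.7, 3.63 and 27.0 in Ins2+/- A, at 10.5, 4.62, 6.09, 2.60 and 6.10 in Ins2+/+ B and at 14.8, 29.2, 4.23, 39.7 and 8.18 in Ins2+/- B. Its interaction was 2.66 (SE 0.94, unadjusted p 0.00945), and 1.65 (unadjusted p 0.081) without Ins2+/- B 2 and B 4.

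Per library the markers summed to 348, 1179, 2156, 514 and 1423 CPM in Ins2+/+ A, to 284, 209, 517, 363 and 1688 in Ins2+/- A, to 687, 312, 479, 232 and 534 in Ins2+/+ B and to 727, 446, 402, 2730 and 858 in Ins2+/- B. Markers of one cell type share their source, so the 19 members are not independent observations. The interaction was also fitted with this summed level as a covariate. Beyond those fitted values, how far the level enters the results of other genes was not tested. The median interaction of the list was 1.60 without Ins2+/- B 2 and B 4, 1.61 without B 4 alone, 3.19 without Ins2+/- A 5, 0.84 without the 9 libraries with islet transcripts and 0.41 when the summed level was a covariate. The covariate is built from the same genes, which brings their interaction towards 0 by construction. Mat1a, which is not on the list, had an interaction of 2.91 (SE 0.95) and of 1.74 without Ins2+/- B 2 and B 4, and was highest in Ins2+/- B 4 (87.7 CPM), which also had the highest hepatocyte sum. Cp, a gene that hepatocytes also express, had an interaction of 1.83 with the hepatocyte covariate and of 1.86 without it. Whether hepatocyte RNA entered the Cp values was not tested. Pancreatic acinar markers, all 16 tested with a positive interaction, went from a median of 3.42 to -2.49 without Ins2+/- B 2 and B 4, and the 13 islet markers from 0.09 to -4.77. Without Ins2+/- A 2 alone these medians were 7.64 and 7.74. Without Ins2+/+ A 3 alone the islet median was -4.11, and without Ins2+/- B 4 alone the acinar one was -0.998.

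In liver, 0 of 11777 genes passed the edgeR test of the same interaction, with 565 (4.8%) at an unadjusted p below 0.05, 273 (2.32%) higher and 292 (2.48%) lower. Of the 387 muscle genes, 347 were tested in liver, 188 had the same direction there and 9 were at an unadjusted p below 0.05 in both tissues, 7 of them in the same direction. The interaction of Cp in liver was 0.01, and the difference between muscle and liver was 1.83 (edgeR over all 39 libraries, adjusted p 0.813), so its interaction was not shown to be particular to muscle. The sample titles use the same replicate numbers in both tissues, and no pairing of liver with muscle libraries was fitted. Over the 10517 genes tested in both tissues, 0 had an interaction that differed between them, with 393 (3.74%) at an unadjusted p below 0.05, 228 (2.17%) higher in muscle and 165 (1.57%) lower. This count depended on 1 library. Without Ins2+/- A 5, which had the highest hepatocyte sum of its group (1688 CPM), 8 genes were called, all higher in muscle, among them Hpd, Aldh1b1, Wfdc21, Cyp3a44, Mup3, Etnk2 and Bhmt. Hpd and Mup3 are hepatocyte markers of the list, and Cyp3a44 and Bhmt are enzymes known from liver. The differences of these 7 without that library ran from 3.88 to 6.16 on the log2 scale, with adjusted p from 0.00309 to 0.046, and with all libraries their adjusted p lay between 0.775 and 1.00.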

How the data were processed

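Per the labels' protocols, RNA (400 ng) was extracted with RNeasy Mini, made into TruSeq v2 libraries, which do not mark strand, and run on 2 HiSeq2500 rapid-run lanes; which library ran on which lane is not given. Reads were converted with bcl2fastq 1.8.4. Per the submitters' processing notes, kallisto 0.42.3, GRCm38 and DESeq2 (no version or role) were used. The deposited tables hold estimated counts per gene, in which kallisto shares reads out among similar transcripts; values of near-identical or overlapping genes are therefore uncertain. Labels describe the mice as littermates; each library was taken as a mouse. If replicates are not separate animals, p-values measure only the spread between libraries.

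Estimated counts were rounded. Of 46517 identifiers, 46005 (98.9%) matched GENCODE M21 by identifier; the 512 others held 0.22% of muscle counts, and 118 share a symbol. edgeR 4.0.16 in R 4.3.3 (TMM, filterByExpr by group, glmQLFit, glmQLFTest) fitted 4 group means; the calling threshold was a Benjamini-Hochberg value of 0.05. The SE is the size of the log2 ratio over the square root of F. Alternatives included DESeq2 1.42.0, limma 3.58.1 (voom), other scalings and filters, covariates and left-out libraries. A list needed 5 tested members, and its level is the median of log2(CPM + 0.5).

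Named genes were the insulin genes, 12 genes of insulin action, the 12 of lowest p per direction (5 without Ins2+/- B 2 and B 4) and the member of lowest p in each list. Scd1, Alb, Myh7, Atp2a2, Aldoa, Col6a3, Hspa5, list members named as examples and the genes of the liver comparison were named after their values were seen. The comparison, members, lists and rules were chosen with earlier results of these data known. Brown adipocyte, neutrophil, lymphocyte and keratinocyte lists had under 5 tested members and are not described. A few of the genes so chosen are not reported here. Scripts were tested on simulated counts. Replicate numbers did not pair the libraries throughout (closing section).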

Additional observations from a re-analysis of the deposited data

Results flagged for a closer look

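Within each group of 5, the library with the highest or lowest value of a named gene, list level or library measure was compared with the others by Dixon's criterion on a log2(CPM + 0.5) scale for CPM. Of 486 groups tested, 40 held a library far from the other 4, where chance gives about 1 in 20. Where the other 4 were all at 0, as for Ins1 and Rgs17 below, any count was flagged. That rate does not apply to such groups. The values are CPM unless stated otherwise, and each is followed by the range of the other 4 only where it bears on a result.

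Ins2+/- A 3, the shallowest library, was low in Insr (20.7, others 67.5 to 102), Slc2a4 (278), Ucp3 (121), Inppl1 (54.1), Myod1 (0) and the level of the interferon list (-1.0 in log2), and high in Wdpcp (17.7) and in the mitochondrially encoded share (26.8%). Ins2+/- B 2 was low in Irs1 (12.2), Irs2 (2.35) and Dusp16 (15.0) and high in Smc6 (86.1), Ndufa5 (438, others 76.9 to 107) and mt-Nd3 (13952). Ins2+/- B 4 was low in Anapc11 (3.31), C1qb (0) and the level of the pyruvate dehydrogenase list (6.44 in log2), and high in Ttr (257, others 15.1 to 33.4) and in the level of the hepatocyte list (5.74 in log2).

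Ins2+/- A 2 was high in Ins1 (0.2135), Ins2 (3605), the islet hormones (3079), Rgs17 (5.84) and the acinar level (3.97 in log2). Ins2+/- A 5 was high in Eri3 (113) and the circadian level (5.73 in log2), and Ins2+/- B 5 in Ins1 (1.29).

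Among Ins2+/+ libraries, A 1 was low in Pdk4 (1118) and B 1 likewise (838). A 3 was high in the islet and acinar levels (5.81 and 3.32 in log2), A 4 in Inppl1 (180.0) and Mpc1 (369), and A 5 in Trim63 (377). B 1 was high in the lipogenesis level (5.40 in log2) and B 2 in Trib3 (0.840). B 3 was low in Agpat2 (6.33) and in the extracellular matrix level (5.49 in log2), B 4 was high in Lars2 (10876), and B 5 in the smooth muscle and pericyte level (5.35 in log2).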

How the results depend on the processing

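The count of genes called in the interaction was 0 under all settings run except DESeq2 (1 higher) and the fit of 39 libraries (1 higher), both Cp; at an unadjusted p below 0.05 it was 231 higher and 156 lower. Genotype on diet A had 1 higher (Mpp2) and 1 lower with DESeq2, and 102 and 98 unadjusted. Genotype on diet B had 1 higher with DESeq2, 3 higher and 2 lower in the 39-library fit, and 342 and 201 unadjusted. Diet in Ins2+/+ had 1 higher with DESeq2 (Mpp2), 1 with limma-voom (Scd1), and 117 higher and 182 lower unadjusted. Diet in Ins2+/- had 0 higher with robust estimation, without islet-positive libraries and in the 39-library fit, 6 with the islet covariate, 0 to 1 with 1 library left out, 1 lower with DESeq2, and 296 higher and 281 lower unadjusted. Muscle minus liver had 0 to 8 higher with 1 library left out, and 228 higher and 165 lower unadjusted. The causes were not tested.

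Of 3179 comparisons of 84 named genes with an alternative, 3137 kept direction and side of the threshold and 40, in 11 genes, turned sign. No named gene was called in the interaction with all 20 libraries, so keeping that side says little. A missing adjusted p was counted as kept. Sizes could still move: Lars2 went from 3.83 to 1.11 without Ins2+/- B 4. Without Ins2+/- B 2 and B 4 the genes that turned sign were Ins2 (-3.42), Slc2a4 (0.26), Trim63 (0.0088), Ucp3 (0.011), Nupr1 (-0.31), Ttr (-0.61) and Amy2a5 (-2.05). Without the 4 libraries that stood apart, chosen after seeing the data, they were Ins2 (-4.07), Insr (-0.18), Slc2a4 (0.12), Trim63 (0.16), Nupr1 (-0.37), Ttr (-0.95) and Amy2a5 (-1.61). Without islet-positive libraries they were Ins2 (-0.92), Insr (-0.32), Slc2a4 (0.24), Nupr1 (-0.35) and Ttr (-0.025), and with the hepatocyte covariate, also added later, Ins2 (-2.19), Ttr (-1.24) and Amy2a5 (-1.95). Limma-voom turned Trim63 (0.053), Trib3 (-0.73), Nupr1 (-0.66) and Ttr (-0.027), and leaving out the libraries numbered 1 turned Insr (-0.064) and Ucp3 (0.019). Ins2, Insr, Slc2a4, Pdk4, Fbxo32, Ucp3 and Ttr each turned in at least 1 fit that left out 1 library. Over all 20 such fits the values ranged from -3.55 to 8.83 for Ins2, -0.18 to 0.19 for Insr and -0.31 to 0.064 for Slc2a4. They ranged from -0.022 to 0.24 for Pdk4, -0.14 to 0.21 for Fbxo32, -0.27 to 0.0028 for Ucp3 and -0.40 to 1.94 for Ttr. Each range holds values that kept their sign beside those that turned.

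Replicate numbers shared by the groups did not pair the libraries throughout: all 6 pairs of number 1 had deviations correlated at 0.179 to 0.260, but only 11 of all 30 same-number pairs exceeded 0.1, and 10 of 20 libraries correlated best with their own number. With the number as a replicate block 0 genes were called, and Cp was 1.83 (adjusted p 0.709). Depth limits genes at a few CPM, where the shallowest library (1060469 counts) holds single reads.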
